A study of Caenorhabditis elegans with 2 samples.

Results

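The genes examined here are cfp-1, jmjd-1.2, lin-35 and mrg-1, 4 chromatin regulators of Caenorhabditis elegans out of 19973 nuclear protein-coding genes in the annotation. They were chosen by a measured value, the presence of a thresholded HMBX-1 region near the annotated gene start, so that presence is a description and no test of it is given. Their regions are 4 of the 416 nuclear regions in the thresholded list. The data are chromatin immunoprecipitation with sequencing (ChIP-seq) of HMBX-1, a homeobox protein related to human HMBOX1, in whole early embryos of mixed sex collected 45 min after egg bleaching. Both samples are biological replicates of the strain OP656, whose genotype is unc-119 (tm4063) III with the transgene wgIs656, which gives HMBX-1 fused at its C terminus to GFP and FLAG. All values therefore come from a tagged transgene in a single unc-119 mutant line. The sample description gives an antibody against GFP, while the antibody label reads hmbx-1. No untagged strain or second condition was analysed here, so no contrast between conditions was made, and a whole-embryo sample does not show which cells carried the protein. The label of the stage could not be set against marker genes, because region lists hold no expression values.

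The 4 genes act at different steps of chromatin control. LIN-35 is the worm retinoblastoma-like protein, which works in the DREAM complex to repress target genes. JMJD-1.2 is a jumonji-domain histone demethylase related to human PHF8 and KDM7, and it removes methyl marks linked to repression. MRG-1 is the relative of human MRG15, a chromodomain protein that binds methylated histone H3 lysine 36 and is needed in the germline. CFP-1 is the CXXC zinc-finger subunit of the SET-2 (COMPASS) complex, which methylates histone H3 lysine 4 at promoters. In C. elegans many transcripts receive a spliced leader, so an annotated 5′ end can lie downstream of the place where transcription begins, and distances below are to the annotated 5′ end.

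The sequences around the summits of 3 of the 4 regions are shown because the strongest pooled region of each gene is centred there. Each run of 201 bases is centred on the summit, read 5′ to 3′ on the strand of the named gene from the RefSeq WBcel235 genome. The jmjd-1.2 window is chrIV:4660539-4660739 on the plus strand, the mrg-1 window is chrIII:12874736-12874936 on the minus strand and the cfp-1 window is chrIV:14076962-14077162 on the plus strand. Capitals mark the word TTGCAA.
jmjd-1.2: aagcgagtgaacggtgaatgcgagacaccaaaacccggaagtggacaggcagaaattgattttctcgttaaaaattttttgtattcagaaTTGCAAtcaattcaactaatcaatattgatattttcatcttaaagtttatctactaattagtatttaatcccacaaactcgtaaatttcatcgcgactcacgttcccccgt
mrg-1: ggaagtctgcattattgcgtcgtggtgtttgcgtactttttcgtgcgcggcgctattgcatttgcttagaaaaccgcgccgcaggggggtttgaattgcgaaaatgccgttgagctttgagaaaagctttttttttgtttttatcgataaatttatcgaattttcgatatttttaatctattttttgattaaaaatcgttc
cfp-1: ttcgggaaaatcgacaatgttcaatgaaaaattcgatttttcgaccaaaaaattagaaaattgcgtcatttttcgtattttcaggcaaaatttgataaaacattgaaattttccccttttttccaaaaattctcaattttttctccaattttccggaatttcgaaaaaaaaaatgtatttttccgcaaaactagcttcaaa

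All 3 windows were centred between genes. Both replicate 2 summits at jmjd-1.2 lay outside its window, as described with that gene. The jmjd-1.2 window held TTGCAA at 7.5 bp upstream of the summit, measured to the centre of the word. The mrg-1 and cfp-1 windows did not hold it.

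The lists carry a signal value for each region, which the authors deposited as their caller gave it and which is not a read count. The relaxed lists, which mix peaks with background, held 29978 nuclear regions for the pooled replicates, 25383 for replicate 1 and 22887 for replicate 2. The 416 thresholded nuclear regions were exactly the 416 pooled regions of highest signal, the lowest at 95.3 and the next pooled region at 95.2. Being in the thresholded list was therefore the same as having a pooled signal of at least 95.3. A region had the list's usual width, 490 bp in the pooled list, in 99.8% of pooled regions, and its summit then lay at the middle. Signal scales of different lists were not shown to be comparable, so each value is read by its percent rank, the percent of nuclear regions in the same list with a signal at least as high. Read depth is unknown, and the 2 replicates give no more than a rough spread.

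All 4 genes had 1 thresholded region within 1000 bp of the start, as the choice of genes required. The same was true of 297 of 9225 protein-coding genes that had a region of the pooled relaxed list within that distance (3.22%) and of 1.49% of all nuclear protein-coding genes. In the pooled list the strongest region had a signal of 153.5 at lin-35, rank 160. It was 133.0 at jmjd-1.2, rank 212. It was 117.0 at mrg-1, rank 269, and 96.6 at cfp-1, rank 404. The order placed cfp-1 just inside the threshold and lin-35 well above it. Of 156 thresholded promoter regions away from small RNA genes, lin-35 stood at place 41, jmjd-1.2 at 62, mrg-1 at 85 and cfp-1 at 152. A promoter region here has its summit within 1000 bp of a protein-coding start and more than 250 bp from a tRNA, snoRNA, snRNA or rRNA gene. The median signal of these 156 was 120.7, so lin-35 and jmjd-1.2 lay above it and mrg-1 and cfp-1 below. The deposited pooled −log10 q value was at the list's maximum of 2.24 for lin-35 and jmjd-1.2, 2.06 for mrg-1 and 2.08 for cfp-1. In replicate 1 it was 2.70 for lin-35 and jmjd-1.2, 1.92 for mrg-1 and 1.95 for cfp-1. In replicate 2 it was 1.99 for lin-35, 1.79 for jmjd-1.2, 1.99 for mrg-1 and 0.981 for cfp-1.

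**Figure D1:**
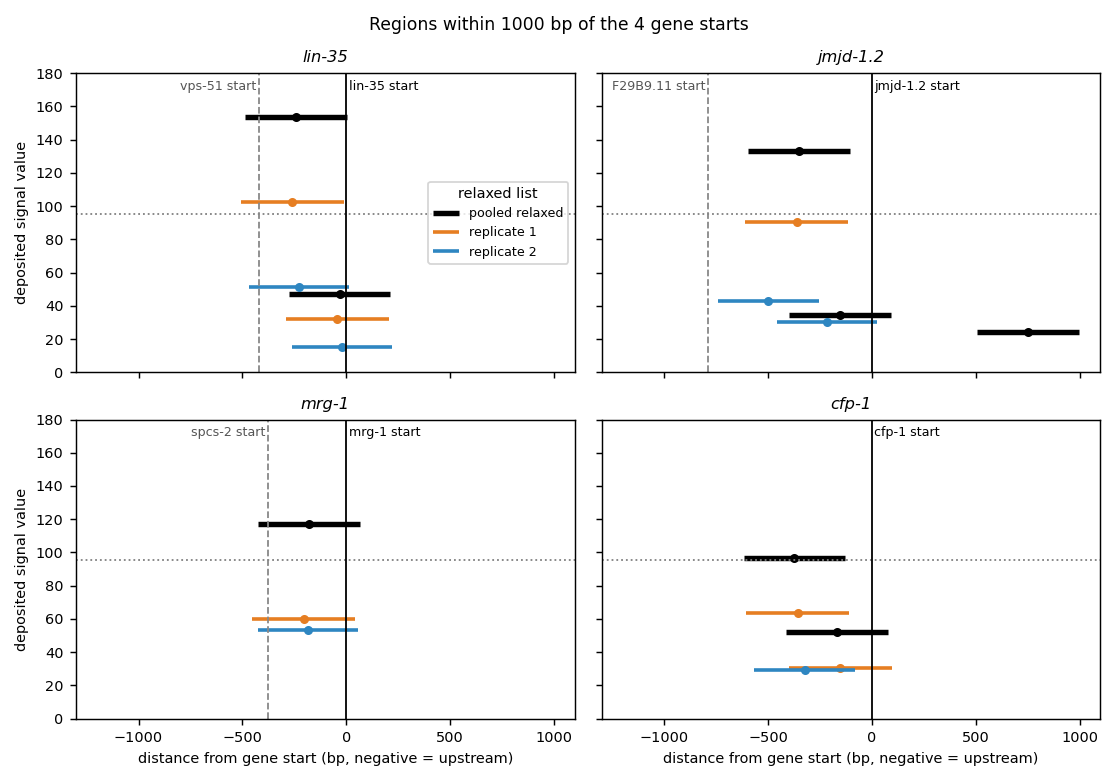
Regions within 1000 bp of each gene start in the pooled, replicate 1 and replicate 2 relaxed lists. The x axis is distance from the annotated start in bp along the gene, the y axis is the deposited signal value, bars span the region, points mark the summit, dashed lines mark the start of the divergent neighbour and the dotted line is the lowest thresholded signal of the pooled list, 95.3. At each gene the strongest bar in every list lies upstream of the start.

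The lin-35 region (I, 5807223 to 5807712, summit 5807468) lay in the 417 bp between lin-35 (I, 5807709 to 5815637, plus strand) and vps-51 on the opposite strand. The gene vps-51 encodes a homolog of a vacuolar protein sorting subunit. Its start was 177 bp from the summit and the lin-35 start 241 bp, so the summit lay closer to the neighbour. The signal was 102.2 in replicate 1, rank 136, and 51.6 in replicate 2, rank 279. It was the only one of the 4 regions ranked within the first 416 nuclear regions of both replicates, as 88 of the 156 promoter regions were (56.4%). The percent rank was 0.534% in the pooled list and averaged 0.877% ± 0.483 (SD, n = 2) over the replicates. The replicate summits lay 33 bp apart, at 260 and 227 bp upstream of the start.

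A weaker region overlapped the first at lin-35 in every relaxed list. Its summit lay 32 bp upstream of the start with a pooled signal of 46.9, rank 3915. In replicate 1 it lay 42 bp upstream with 31.9, and in replicate 2 it lay 19 bp upstream with 15.0. Overlapping regions of fixed width share sequence, so the pair does not show separate sites. Such an overlapping second region in the pooled list was found at 74.4% of the 156 promoter regions. Inside the 7929 bp of lin-35 itself, 2 pooled regions were listed, the stronger with a signal of 31.9.

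The jmjd-1.2 region (IV, 4660394 to 4660883, summit 4660639) lay in the 789 bp between jmjd-1.2 (IV, 4660991 to 4665212, plus strand) and F29B9.11 on the opposite strand, which RefSeq names a cytochrome c oxidase polypeptide. The jmjd-1.2 start was the closer one to this pooled summit, at 352 bp against 438 bp. The signal was 90.4 in replicate 1, rank 181, and 43.1 in replicate 2, rank 432. The percent rank was 0.707% pooled and averaged 1.30% ± 0.830 (SD, n = 2).

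The replicates placed the jmjd-1.2 signal differently. Replicate 1 listed a single region within 1000 bp, with its summit 361 bp upstream. Replicate 2 listed 2 regions, with summits 499 and 216 bp upstream and signals of 43.1 and 30.2, on either side of the pooled summit. The stronger of these 2, with its summit at 4660492, was closer to the F29B9.11 start, at 4660201, than to the jmjd-1.2 start. The strongest summits of the replicates were thus 138 bp apart, against a median of 42 bp and an upper quartile of 78.25 bp over the 156 promoter regions. The pooled list added 2 weaker regions, at 153 bp upstream with 34.4 and at 753 bp downstream with 24.5. The latter was the 1 pooled region within the 4222 bp of the gene.

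The mrg-1 region (III, 12874591 to 12875080, summit 12874836) spanned the whole 374 bp between mrg-1 (III, 12871029 to 12874656, minus strand) and spcs-2, a subunit of the signal peptidase complex, on the opposite strand. The pooled summit lay 180 bp from the mrg-1 start and 195 bp from the spcs-2 start, a difference far smaller than the 490 bp width of the region. The replicate 1 summit, 204 bp upstream of the mrg-1 start, was closer to the spcs-2 start. The signal was 59.6 in replicate 1, rank 440, and 53.1 in replicate 2, rank 263. It was the only one of the 4 with a lower percent rank in replicate 2 than in replicate 1, 1.15% against 1.73%, with a mean of 1.44% ± 0.413 (SD, n = 2) and 0.897% pooled. The replicate summits lay 20 bp apart. No second region lay within 1000 bp of the start in the pooled or replicate lists, and no pooled region lay within the 3628 bp of the gene.

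The cfp-1 region (IV, 14076817 to 14077306, summit 14077062) was the only one of the 4 that did not lie between divergent starts. The gene upstream, ccar-1, runs in the same direction as cfp-1 (IV, 14077435 to 14083568, plus strand) and ends 320 bp before the summit. The cfp-1 start was 373 bp away and no start of another gene was closer. The signal was 63.5 in replicate 1, rank 379, and 28.9 in replicate 2, rank 1691. The percent rank was 1.35% pooled, 1.49% in replicate 1 and 7.39% in replicate 2, with a mean of 4.44% ± 4.17 (SD, n = 2). The region thus stood within the first 416 nuclear regions of the pooled list and of replicate 1, and far outside them in replicate 2. An overlapping region 168 bp upstream of the start had 52.1 in the pooled list and 30.3 in replicate 1, and none was listed there in replicate 2. Inside the 6134 bp of cfp-1, 4 pooled regions were listed, the most among the 4 genes, the strongest with a signal of 33.7. The annotation gives cfp-1 8 transcripts with 7 starts, and the gene start was the one nearest to the summit.

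The percent ranks of neighbours in the order were close beside their spread. Over the replicates, the mean percent ranks of lin-35, jmjd-1.2 and mrg-1 differed from one another by less than the SD of jmjd-1.2, and the SD of cfp-1 was about as large as its mean. The order of the 4 genes by pooled signal was kept in replicate 1 for lin-35 and jmjd-1.2, with cfp-1 above mrg-1, and in replicate 2 it was mrg-1, lin-35, jmjd-1.2 and cfp-1.

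Replicate 1 had the higher signal values in general, and the ratio of replicate 1 to replicate 2 is read only against other regions. Its median over all 416 thresholded regions was 1.47. The ratio was 1.98 at lin-35, 2.1 at jmjd-1.2 and 2.19 at cfp-1, which put them at percentiles 83.2, 87.3 and 90.4 of the 416. At mrg-1 it was 1.12, percentile 20.4. So 3 of the 4 regions leaned towards replicate 1 more than most thresholded regions did, and mrg-1 leaned the other way. At jmjd-1.2 the ratio used the only replicate 1 region, with 90.4, and the stronger of 2 replicate 2 regions, with 43.1 and 30.2. Both replicate lists were made with 1 further input file in common, whose role the notes do not state, and its part in these values was not tested.

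**Figure D2:**
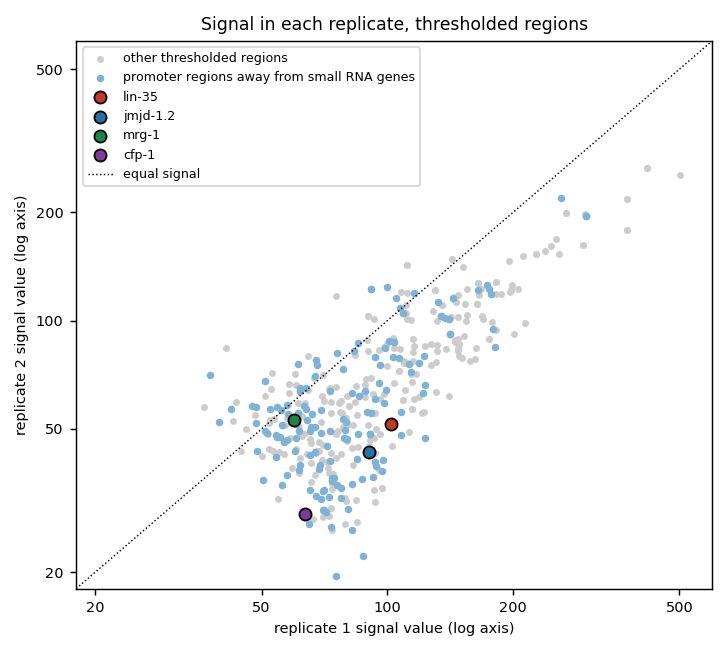
Signal value in replicate 1 (x axis, log) and replicate 2 (y axis, log) for the 416 thresholded regions, each taken as the strongest overlapping region of the replicate. Blue points are the 156 promoter regions away from small RNA genes, large points are the 4 genes, and the dotted line marks equal values. The points for lin-35, jmjd-1.2 and cfp-1 sit low for their replicate 1 signal, while mrg-1 sits close to the line at a ratio of 1.12.

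All 4 summits lay upstream of the gene they were chosen for and in no annotated gene of any type. Summits lay upstream of the nearest start in 85.3% of the 156 promoter regions, so an upstream place was usual. The summits of lin-35, jmjd-1.2 and mrg-1 lay between divergent protein-coding starts, each within 1000 bp, as did 54 of the 156 (34.6%). Because of this arrangement, the 4 summits lay within 1000 bp of 7 protein-coding starts, namely those of the 4 genes and of vps-51, F29B9.11 and spcs-2. Region lists do not show which of the genes sharing a gap the bound protein relates to. The nearest tRNA, snoRNA, snRNA or rRNA gene was 18252 bp from the lin-35 summit, 45204 bp from that of jmjd-1.2, 134587 bp from that of mrg-1 and 63186 bp from that of cfp-1.

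The 4 summits stood near the middle of the gap between genes. Measured from the nearest start, the summit lay at 42.3% of the gap for lin-35, 44.6% for jmjd-1.2, 48.0% for mrg-1 and 53.8% for cfp-1. For the 127 promoter regions with a summit between genes, the median was 30.5% and the quartiles were 11.5% and 42.6%. The gaps of the 4 genes, 374 to 789 bp, bracketed the median of 630 bp, but the 127 regions were not matched for gap length. In a long gap the 1000 bp limit keeps the percentage small, as at Y39E4B.6 with 0.660% of 15313 bp, which lowers the median. In gaps of lengths like those of the 4 genes, other summits also stood near the middle, as at hsr-9 with 48.1% of 444 bp. Others did not, as at tre-1 with 11.8% of 438 bp. A region of 490 bp covers most or all of such a gap, so its middle does not place a site within it. This feature was looked at after the values were seen.

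The GC content at the summit was low at lin-35, jmjd-1.2 and cfp-1 beside other promoter regions within 25 and 50 bp. Within 100 bp, lin-35 and jmjd-1.2 came nearer to the promoter median. At mrg-1 the GC content was above that median within 25 bp only. Within 50 bp of the summit the GC content was 31.7% at lin-35, 20.8% at jmjd-1.2, 40.6% at mrg-1 and 24.8% at cfp-1. The median over the 156 promoter regions was 45.5%, with quartiles of 36.6% and 51.7%, and over the 29562 other pooled relaxed regions it was 33.7%. Only 4 of the 156 were at or below the value of jmjd-1.2 and 8 were at or below that of cfp-1, these genes included. The lin-35 summit was at place 25 from the lowest, below the lower quartile, and mrg-1 at place 55, between the quartiles. Within 25 bp, mrg-1 had 52.9%, above the promoter median of 47.1% for that window, while lin-35 had 27.5%, jmjd-1.2 21.6% and cfp-1 25.5%. Within 100 bp the values were 36.8% at lin-35, 35.3% at jmjd-1.2, 37.8% at mrg-1 and 27.9% at cfp-1, against a median of 39.8%, so cfp-1 was the furthest below it. GC content too was examined after the values were seen.

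**Figure D3:**
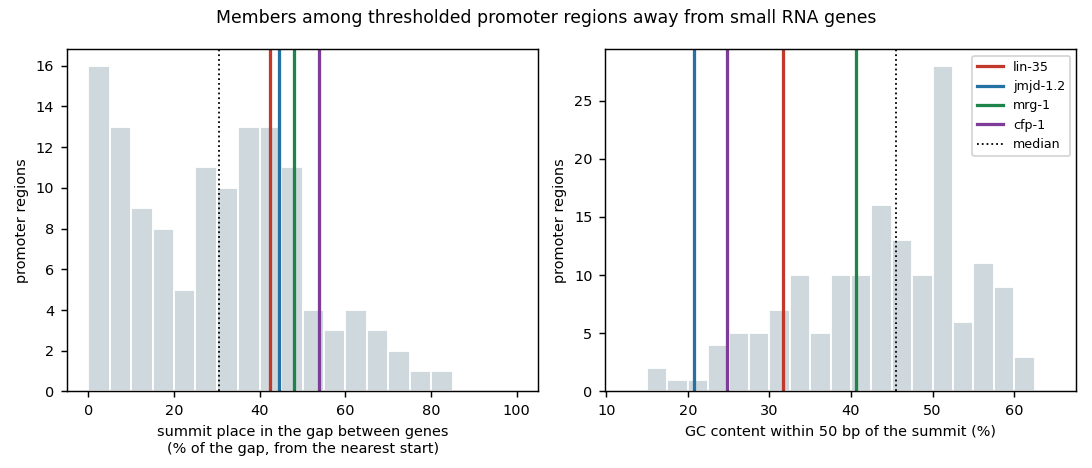
Histograms of the place of the summit in the gap between genes (left, percent of the gap from the nearest start, 127 regions) and of GC content within 50 bp of the summit (right, percent, 156 regions) for thresholded promoter regions away from small RNA genes. Coloured lines are the 4 genes and the dotted line is the median. The 4 genes lie between 42.3% and 53.8% of the gap, above the median of 30.5%, which regions in long gaps lower because gap length was not matched. All lie below the median GC content of 45.5% in this window, which mrg-1 does not within 25 bp.

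Words were searched on both strands within 50 bp of each pooled summit. TTGCAA, a palindrome, was present at jmjd-1.2 only, and was found in 37 of the 156 promoter regions (23.7%) and 5.52% of the other pooled relaxed regions. At lin-35 it lay just outside that window, 53.5 bp upstream of the summit, and at mrg-1 and cfp-1 it was absent from 300 bp on either side. The match at jmjd-1.2 lay more than 50 bp from both replicate 2 summits of that gene. The tRNA box words GTTCGA and AGTGGT, the HMBOX1 core TAGTTA and the telomere repeat unit TTAGGC were in none of the 4 windows. Their shares in the 156 promoter regions were 5.77%, 5.77%, 1.28% and 2.56%. No match says only that these letters are not in these windows.

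The surroundings of the 4 regions held weaker regions only. Within 10 kb of the summit, apart from regions overlapping the strongest one, the highest pooled signal was 31.9 near lin-35, 49.5 near jmjd-1.2, 44.5 near mrg-1 and 61.7 near cfp-1. The cfp-1 region stood least above its surroundings, at 96.6 against 61.7. The numbers of such surrounding pooled regions were 4, 11, 6 and 7 in the same order.

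A list of chromatin regulators was read in the same way. Of 81 genes written, 80 matched the annotation by symbol, and 66 of these had a pooled relaxed region within 1000 bp of the start. The list includes the 4 genes and was written with earlier results known, so its count is not independent evidence. A thresholded region was found at 5 of the 80, the 4 genes and cbp-1, but the 4 were chosen for having one. Without them it was 1 of 76, beside 1.49% of all protein-coding genes. Among those with a pooled region it was 1 of 62, beside 3.22% of such protein-coding genes. The gene cbp-1 encodes the worm relative of the acetyltransferases p300 and CBP. It had a signal of 240.9, higher than any of the 4, with its summit 923 bp upstream of the start and another thresholded summit at 709 bp. These 2 regions overlapped and had the same strongest overlapping replicate signals, 140.3 and 101.3, so they do not show separate sites. The next nearest thresholded summit to a list gene was 1632 bp from cec-4, a chromodomain gene. Among the 62 other list genes with a pooled region, the median of the strongest signal was 37.4, against 34.2 over all 9225 protein-coding genes with one.

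**Figure D4:**
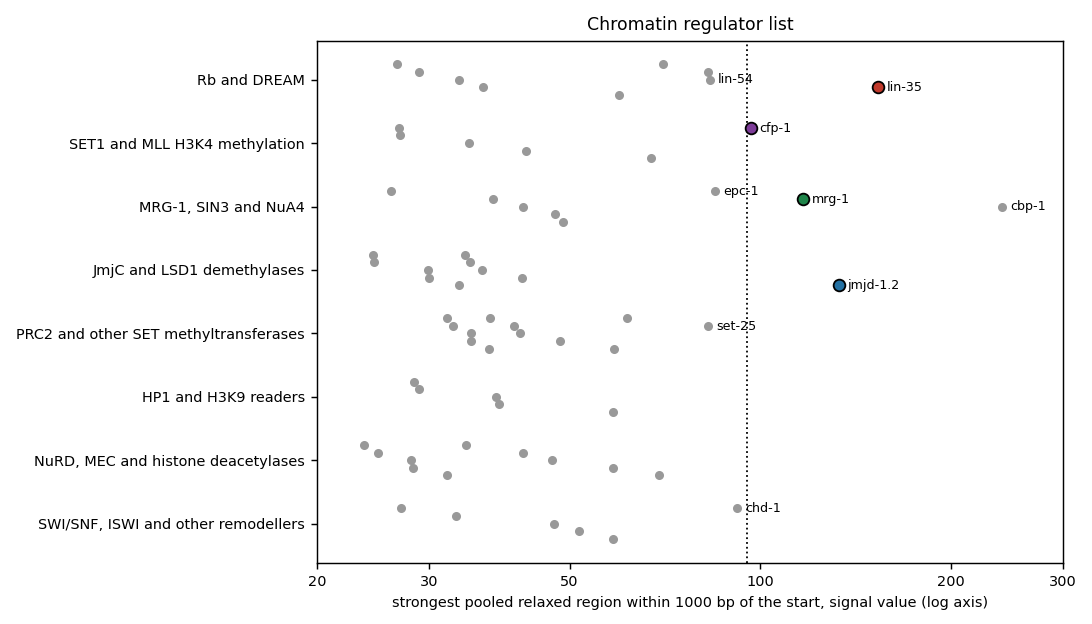
Strongest pooled relaxed region within 1000 bp of the start (x axis, signal value, log) for 66 list genes, by role (y axis); vertical offsets within a role only separate points. The dotted line is the lowest thresholded signal, 95.3, and 5 genes lie to its right, with cfp-1 at 96.6 closest to it and chd-1 at 91.8 closest on the other side.

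Other genes of the same roles are given next by their pooled signal. Since the 4 genes were selected on a signal above the threshold, most other genes being below them follows from that choice. With a thresholded region at 1.49% of all protein-coding genes, groups of 7 to 14 genes are too small for their counts to tell roles apart. In the retinoblastoma and DREAM group, 1 of 11 genes had a thresholded region and the median of the 9 with a pooled region was 59.9. After lin-35 came lin-54, the DNA-binding subunit of DREAM, with 83.2, and the histone-binding gene lin-53 with 82.6. The lin-54 region had its summit 301 bp from that start but 92 bp from the start of rpl-12, a ribosomal protein gene. The DREAM gene lin-37 had 59.9, with the summit 619 bp downstream of its start. The E2F gene efl-1 had no pooled region, with 22.5 in replicate 1 and 23.4 in replicate 2.

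In the histone H3 lysine 4 methylation group, 1 of 9 genes had a thresholded region and the median of 6 was 38.6. The gene for the methyltransferase SET-2, which acts with CFP-1, had 34.7, with the summit 902 bp downstream of its start. The core subunit gene ash-2 had 67.1, with the summit 391 bp downstream of its start but 385 bp from the start of Y17G7B.20. The genes wdr-5.1 and rbbp-5 had no region in any relaxed list. Among 12 demethylase genes, jmjd-1.2 was the only one with a thresholded region, and the next highest was jmjd-3.2 with 42.1. Its close relative jmjd-1.1 had 33.4.

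In the group of MRG-1, SIN3 and acetyltransferase genes, 2 of 9 had a thresholded region, mrg-1 and cbp-1, and cbp-1 was the higher. The enhancer of polycomb relative epc-1 had 84.9, with 34.9 in replicate 1 and 54.3 in replicate 2, and sin-3 had 26.1. No thresholded region lay at the 14 genes for PRC2 and other SET-domain methyltransferases, where set-25, a histone H3 lysine 9 methyltransferase, was highest with 82.6. None lay at the 7 HP1 and lysine 9 reader genes, the 10 NuRD, MEC and deacetylase genes or the 8 remodeller genes. At the 1.49% share over all protein-coding genes, none is the likely count for groups of these sizes. Among the remodellers, chd-1 had 91.8, rank 458, with 43.8 in replicate 1 and 47.6 in replicate 2. Its replicate 2 value was higher than that of cfp-1 or jmjd-1.2, although its pooled signal fell short of the threshold.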

How the data were processed

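The data are ChIP-seq region lists in narrowPeak format for 2 biological replicates of 1 group. Per the file notes, the authors called relaxed lists on each replicate and on the pooled replicates, each from the alignments and 1 further file in common, whose role (such as a control) is not stated, and the thresholded list followed by the irreproducible discovery rate procedure. The deposited signal value per region and the deposited −log10 q value were used as given. Which aligner and peak caller were run, and at what threshold, is not given in the sources used here; depth is unknown. Lists on ce11 were used with Ensembl release 115 gene models and the RefSeq genome, both WBcel235; lists on ce10 were not used.

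Summits were start plus offset, given 1-based, and mitochondrial regions were left out. A region belonged to a gene when its summit lay within 1000 bp of the annotated start. Ranks count nuclear regions of 1 list, and ranks from lists of different lengths show no change. No test was run, since the genes were chosen on this readout. The genes and lists were chosen with earlier results of these data known. Beside the 4 genes, the text names closer neighbours, regions next in signal, and the list genes nearest to the threshold or to 1000 bp. Among the list genes named by role, those other than the 4 genes, cbp-1, cec-4, chd-1, epc-1, lin-54 and set-25 were chosen after their values were seen. Distance, side and word search were checked on planted positions. Python 3.11.15, pandas 2.3.3 and numpy 2.4.6 were used.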

Additional observations from a re-analysis of the deposited data

How the results depend on the processing

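Of the 4 genes, 4 had a thresholded region at 500 bp, at 2000 bp, by overlap of the region or from transcript starts, 2 at 250 bp (lin-35 and mrg-1) and 1 (lin-35) in the 208 regions of higher signal, where jmjd-1.2 at rank 212 narrowly missed. The 5 list genes became 2 at 250 bp and 2 in that stricter set. TTGCAA was at 2 of the 4 genes, not 1, within 100 bp. For the pooled summits, a neighbour's start was closer at lin-35 alone under all 3 ways of counting starts. This did not hold for every replicate summit. The strongest replicate 2 summit at jmjd-1.2 lay closer to the F29B9.11 start, and the replicate 1 summit at mrg-1 lay closer to the spcs-2 start. The percent rank without replicate 1 or replicate 2 ran from 0.536 to 1.22 at lin-35, 0.713 to 1.89 at jmjd-1.2, 1.15 to 1.73 at mrg-1 and 1.49 to 7.39 at cfp-1. Within the thresholded list it was 38.5, 51.0, 64.7 and 97.1 by construction, since that list holds fewer regions. The summit, relative to the start, ran from -499 to -361 bp at jmjd-1.2, -204 to -184 bp at mrg-1 and -357 to -324 bp at cfp-1 when either replicate was left out. Taking the region nearest to the start gave 46.9 at lin-35, 34.4 at jmjd-1.2 and 52.1 at cfp-1. The cause of these differences was not tested. Of 50 alternatives, 30 of those on the main results and 1 other stayed within the replicate spread or within 1.5 times the count. Another 16 on the main results and 3 others moved. Some could not move, since a wider distance keeps the 4 genes and the midpoint of a region of usual width is its summit. The replicate spread comes from the same 2 replicates that were left out in turn, so the tally does not measure robustness. No paired analysis was possible because there is 1 group. Depth is unknown, so limits from counts cannot be given.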

Other observations

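Among thresholded promoter regions, the ones directly above and below each gene by pooled signal were taken as the most alike, over 1 pooled value each. For lin-35 they were those nearest to sto-4, with 154.7, and C34C12.9, with 150.5. Another thresholded region near sto-4 was stronger, with 232.5, and both had the same strongest overlapping replicate signals, 141.4 and 91.5. Such pairs count as separate regions among the 156. For jmjd-1.2 they were haf-6 with 133.2 and acbp-6 with 131.9. For mrg-1 they were cpf-2, with 117.1, and C53H9.4, with 116.6. For cfp-1 they were dnj-13, with 96.8, and tomm-20, with 96.3. At cpf-2 the replicate signals were 79.7 and 47.0, a wider gap than the 59.6 and 53.1 of mrg-1 at nearly the same pooled signal.

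Runs of at least 5 A or 5 T differed among the 4 windows of 201 bases. There were 9 at cfp-1, 6 at mrg-1, 2 at jmjd-1.2 and 1 at lin-35, and the median over the 156 promoter regions was 3. These runs were counted after the sequences were seen, and no test was made.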
